A study of Mus musculus with 6 samples.

Results

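The genes described here encode the part of the basement membrane other than its laminins: the collagen IV chains Col4a1, Col4a2, Col4a5 and Col4a6, the nidogens Nid1 and Nid2, the proteoglycans Hspg2 (perlecan), Agrn (agrin) and Col18a1 (collagen XVIII), and Sparc, a secreted collagen-binding glycoprotein. They were taken by symbol, 10 of the 51826 gene symbols counted, and all 10 passed the filter on low counts. RNA-seq was performed on basal cells sorted from the mammary glands of pubertal C57B6/N mice of genotype SMAcreERT2/N1ICD, in which the smooth muscle actin promoter drives a tamoxifen-inducible Cre recombinase and a second allele carries the intracellular domain of Notch1. Each mouse received tamoxifen once at postnatal day 21, and the glands were taken after 72 hours, at day 24. Cells of 2 to 3 mice were pooled, and sorting split each of the 3 pools into a GFP-positive (GFPpos) and a GFP-negative (GFPneg) fraction, which gave 3 libraries per group. Both groups carry the same alleles and received the same drug, what GFP reports is not stated in the sources used here, and no GFP-labelled cells without the Notch1 allele were compared.

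The basement membrane is a thin sheet of extracellular matrix on the underside of epithelia and around vessels, nerves and fat cells. Collagen IV forms a covalently crosslinked network, laminins form another, and nidogens and perlecan bridge them. In the mammary gland this sheet lies directly beneath the basal myoepithelial cells, which are a major source of it. The chains encoded by Col4a1 and Col4a2 join in the collagen IV of nearly all tissues, in trimers with more alpha1 than alpha2 chains, while those of Col4a5 and Col4a6 form trimers of a more restricted distribution.

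Each of these chain pairs is encoded by 2 genes that lie head to head. Col4a1 (chromosome 8, 11198423 to 11312826, minus strand) and Col4a2 (11312805 to 11449287, plus strand; mm10, GENCODE M21) overlap by 22 exonic bases at their 5′ ends. Col4a6 (chromosome X, 141165403 to 141474076, minus strand) and Col4a5 (141475385 to 141689234, plus strand) are separated by 1308 bases. The sequences below are shown because these paired genes share 1 upstream region, and because Hspg2 (chromosome 4, 137468769 to 137570630) and Agrn (chromosome 4, 156165290 to 156197488), with Col4a2, are the genes whose GFPpos and GFPneg values did not overlap. They are the exon-free bases just upstream of the annotated start, 5′ to 3′ on the strand of the gene (RefSeq, GRCm38.p6), at chrX:141475169-141475384 (plus) for Col4a5, chrX:141474077-141474326 (minus) for Col4a6, chr4:137468553-137468768 (plus) for Hspg2 and chr4:156197489-156197738 (minus) for Agrn. Capitals mark matches to 2 motifs, searched on both strands. TGGGAA is the core bound by RBPJ, the DNA-binding partner of the Notch intracellular domain, and GGGCGG is the GC box bound by Sp1. The upstream windows of Col4a1 and Col4a2 lie in the first exon of the other gene and are not printed.
Col4a5: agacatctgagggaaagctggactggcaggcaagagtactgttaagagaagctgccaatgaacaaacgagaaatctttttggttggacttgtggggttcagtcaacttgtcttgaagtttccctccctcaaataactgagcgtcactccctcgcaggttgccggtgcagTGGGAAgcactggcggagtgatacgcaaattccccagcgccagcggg
Col4a6: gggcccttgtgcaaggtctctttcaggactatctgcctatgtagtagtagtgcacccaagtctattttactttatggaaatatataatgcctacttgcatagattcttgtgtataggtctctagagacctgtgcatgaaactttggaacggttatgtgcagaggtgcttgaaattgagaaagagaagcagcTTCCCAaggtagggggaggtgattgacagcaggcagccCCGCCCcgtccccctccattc
Hspg2: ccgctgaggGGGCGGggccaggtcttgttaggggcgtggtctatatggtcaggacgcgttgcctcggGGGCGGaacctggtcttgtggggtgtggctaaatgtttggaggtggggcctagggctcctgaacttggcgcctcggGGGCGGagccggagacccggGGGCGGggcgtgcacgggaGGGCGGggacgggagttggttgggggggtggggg
Agrn: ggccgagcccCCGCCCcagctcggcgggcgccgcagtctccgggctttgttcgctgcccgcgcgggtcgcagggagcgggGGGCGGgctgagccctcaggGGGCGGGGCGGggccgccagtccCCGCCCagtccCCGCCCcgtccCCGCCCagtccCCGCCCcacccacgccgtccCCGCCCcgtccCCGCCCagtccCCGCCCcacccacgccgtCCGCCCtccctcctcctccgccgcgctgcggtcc

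The printed stretch of Col4a5 held 1 TGGGAA and that of Col4a6 held 1 on the reverse strand, with 1 GC box in Col4a6. The stretches of Hspg2 and Agrn held 5 and 12 GC boxes and 0 TGGGAA. Over the RefSeq windows of 250 bases before to 50 after the start, 9 of the 10 genes had an entry, with 11 windows. TGGGAA was in 5 of the 11, against 25.6% of all 32851 windows, and the longer GTGGGAA, which contains it, in 2 (Col4a5 and Hspg2), against 6.38%. A GC box was in 9 of the 11, against 35.7%, and TATAAA in 0, against 13.6%. These matches describe letters only, and binding was not measured.

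Gene counts were 9912610 to 16043492 in 5 libraries and 611465 in GFPneg replicate 1, where 69.2% of counts lay in 5 abundant noncoding features (22.7% to 34.7% elsewhere) and 6913 of the 13873 genes tested had 0 counts. Levels are given as CPM, counts scaled to a common library size with TMM factors, in which 1 count equals 3.28 CPM in GFPneg replicate 1 and 0.0513 to 0.0911 in the others. Notch1, carried in part by the allele, stood at 506, 459 and 423 CPM in GFPpos replicates 1, 2 and 3 and at 105, 177 and 267 in GFPneg, which did not pass the test over all genes (edgeR, adjusted p = 0.625). All 10 basal markers, Krt5, Krt14 and Trp63 among them, were counted in every library.

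The basement membrane genes were mostly less abundant in GFPpos cells, without any single gene passing the test over all genes. The 10 genes together took 0.766%, 0.809% and 0.792% of the gene counts outside the 5 noncoding features in GFPpos replicates 1, 2 and 3, and 1.36%, 1.40% and 1.09% in GFPneg. Every GFPpos share lay below every GFPneg share. With the noncoding features in the total the shares were 0.5003%, 0.574% and 0.612% against 0.417%, 1.05% and 0.839%, and the groups overlapped through GFPneg replicate 1. In bulk libraries such as these, fewer cells of a type and less RNA per cell cannot be told apart.

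Of the 10 genes, 9 had a negative log2 fold change, against 42.5% of all genes tested, and their median was -0.68, against 0.15 over all genes. These sets were not matched for abundance. In GFPneg replicate 1, 49.8% of all genes tested had 0 counts, against 1 of these 10 (Nid2). Abundant genes are set beside the 10 within pools below. In edgeR's quasi-likelihood test 0 were higher and 0 lower at an adjusted p below 0.05, where 0.0577% of all genes were called higher and 0.00721% lower. DESeq2 also called 0 of them and limma-voom 1. With no adjustment, 3 were lower at p below 0.05 (Col4a1, Col4a2 and Hspg2) and 0 higher, against 2.88% and 2.38% of all genes. That count was 6 without GFPneg replicate 1 (Col4a2, Col4a5, Col4a6, Nid2, Hspg2 and Sparc, against 4.57% of all genes). It was 3 without GFPneg replicate 2 (3.89% of all genes) and 2 without GFPneg replicate 3 (3.42%) or GFPpos replicate 3 (3.25%). Without GFPpos replicate 2 it was 1 (3.2% of all genes), and without GFPpos replicate 1 it was 0 (2.6%). In 3 genes, Col4a2, Hspg2 and Agrn, all GFPpos libraries lay below all GFPneg libraries, which held for 3.63% of all genes and for 8.78% of the 1333 genes with a mean of at least 100 CPM. Against GFPneg replicates 2 and 3 alone it held for 8 of the 10 genes, against 13.6% of all genes and 23.5% of the abundant ones, the exceptions being Col4a1 and Nid1.

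**Figure D1:**
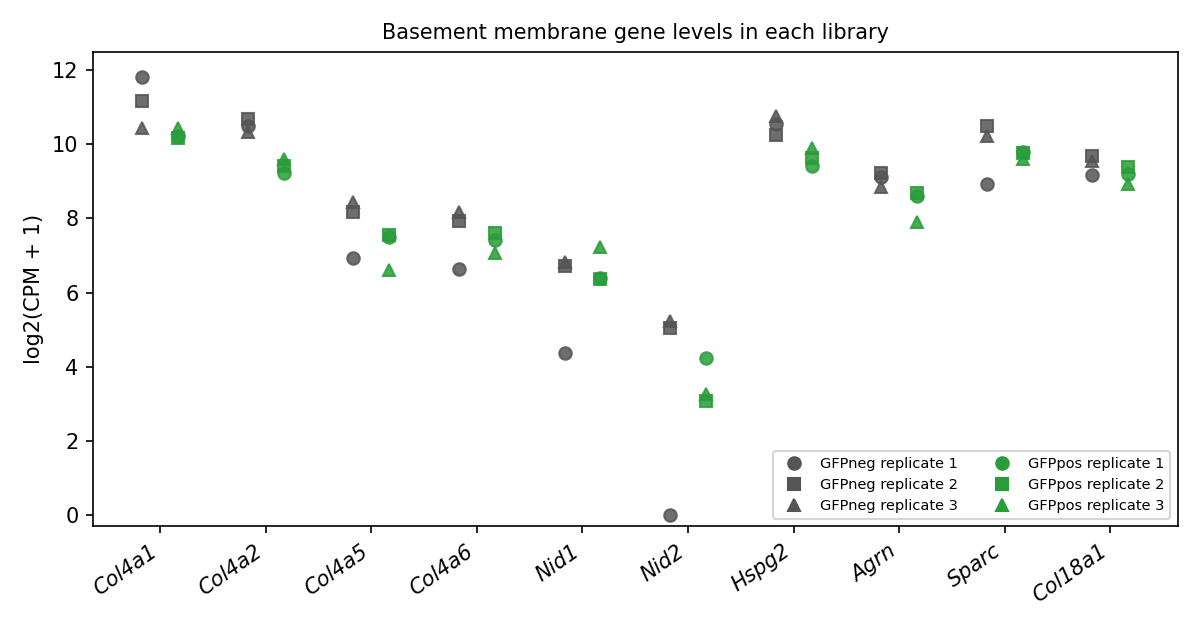
Level of each gene in each library as log2(CPM + 1), grey for GFPneg and green for GFPpos, with the symbol giving the replicate. Green symbols lie below grey ones without overlap for Col4a2, Hspg2 and Agrn, and GFPneg replicate 1 (grey circle) is the lowest grey symbol for Col4a5, Col4a6, Nid1, Nid2, Sparc and Col18a1.

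The general collagen IV chains were lower in GFPpos cells in 2 pools for Col4a1 and in all 3 for Col4a2. Col4a2, which encodes the alpha2 chain, stood at 601, 677 and 782 CPM in GFPpos replicates 1, 2 and 3 and at 1436, 1635 and 1279 CPM in GFPneg. The groups did not overlap in any library. Its log2 fold change was -1.08 (SE 0.36), 2.11-fold lower in GFPpos cells (edgeR, adjusted p = 0.667). It remained between -1.26 and -0.81 over the 18 other settings, and limma-voom alone called it (adjusted p = 0.0207, with 0.173% of all genes called lower).

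Col4a1, which encodes the alpha1 chain, stood at 1195, 1158 and 1399 CPM in GFPpos and at 3597, 2303 and 1392 CPM in GFPneg cells. The third pair was level, with GFPneg replicate 3 just under GFPpos replicate 3, and the value of GFPneg replicate 1 was the highest of all. The log2 fold change was -0.96 (SE 0.40, edgeR adjusted p = 0.843), and -0.55 without GFPneg replicate 1. That library's 1097 counts of Col4a1 give a 95% Poisson interval of 3387 to 3816 CPM, which covers counting error only.

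The restricted chains had lower levels per kilobase of exon than Col4a1 and Col4a2 in every library. Col4a5 stood at 181, 186 and 95.9 CPM in GFPpos and at 121, 286 and 345 CPM in GFPneg cells, and Col4a6 at 170, 195 and 133 CPM and at 98.4, 241 and 288 CPM. For each of these genes GFPneg replicates 2 and 3 lay above all GFPpos libraries, and GFPneg replicate 1 lay among or below them, on only 37 and 30 counts. The log2 fold changes were -0.72 (SE 0.46, edgeR adjusted p = 1) for Col4a5 and -0.35 (SE 0.44, adjusted p = 1) for Col4a6. In the fit with the replicate block on replicates 2 and 3 only, Col4a5 was called lower (log2 -1.21, adjusted p = 0.00902) and Col4a6 was not (-0.69, adjusted p = 0.367), beside 1.41% of all genes called lower. That fit holds 2 pairs and few residual degrees of freedom.

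**Figure D2:**
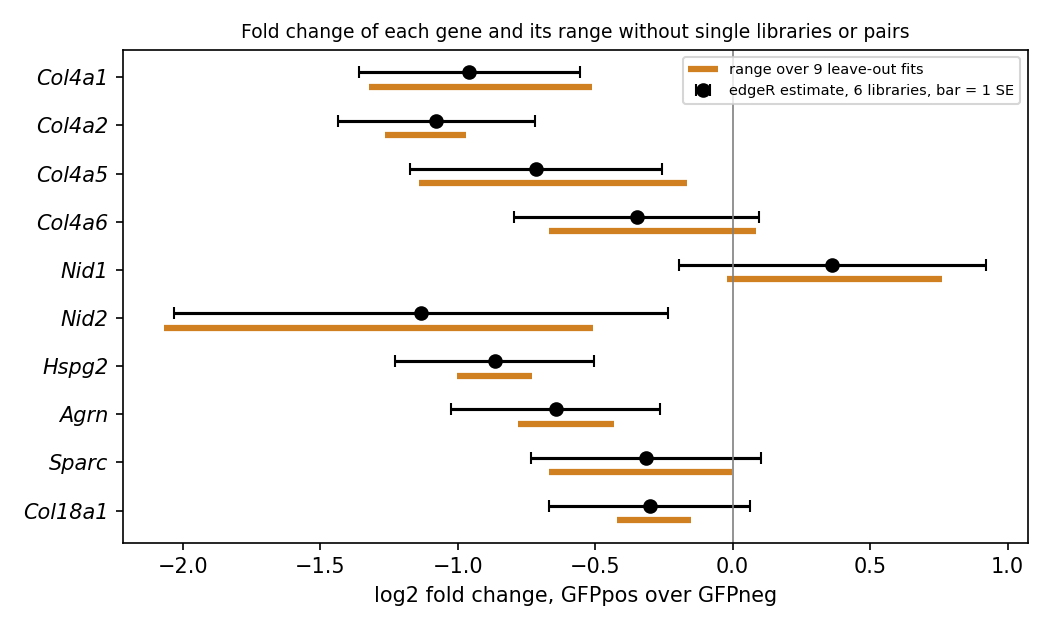
Log2 fold change of GFPpos over GFPneg for each gene, with black points and bars for the edgeR estimate and 1 SE, and orange bars for the range over 9 fits that leave out a library or a pair. The estimates of 9 genes lie left of zero and that of Nid1 right of it, and the orange bars of Col4a6 and Nid1 cross zero.

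Among the proteoglycans, perlecan and agrin separated the groups and collagen XVIII did not. Hspg2, whose product perlecan carries heparan sulfate chains and binds nidogen, collagen IV and growth factors, stood at 682, 790 and 959 CPM in GFPpos and at 1482, 1223 and 1723 CPM in GFPneg cells. All GFPpos values were lower than all GFPneg values (log2 -0.87, SE 0.36, edgeR adjusted p = 0.843). Agrn, whose product links laminin to cell surface receptors and clusters acetylcholine receptors at the nerve-muscle junction, stood at 388, 408 and 237 CPM against 551, 602 and 460 CPM. Its groups did not overlap either (log2 -0.64, SE 0.38, adjusted p = 1), though the gap between the nearest libraries was small. Col18a1 (chromosome 10, 77052178 to 77166548), the source of the angiogenesis inhibitor endostatin, stood at 583, 668 and 486 CPM against 570.5, 815 and 750 CPM. GFPneg replicate 1 fell within the GFPpos range, and the log2 fold change was -0.30 (SE 0.37, adjusted p = 1).

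The nidogens, which join laminin to collagen IV, had the lowest mean levels per kilobase of exon of the set, and their fold changes had opposite signs. Nid2 (chromosome 14, 19751265 to 19811787) stood at 17.8, 7.39 and 8.67 CPM in GFPpos and at 0, 31.8 and 36.6 CPM in GFPneg cells. The 0 in GFPneg replicate 1 allows a level of up to 9.84 CPM (3 counts), and the other GFPneg libraries lay above all GFPpos libraries. The log2 fold change was -1.13 (SE 0.90, edgeR adjusted p = 1). Nid2 was called lower with the replicate block on replicates 2 and 3 only (log2 -2.07, edgeR adjusted p = 0.00943). That fit, with few residual degrees of freedom, called 1.41% of all genes lower. Of its exonic bases 8.45% are shared with Rtraf. Nid1 (chromosome 13, 13437551 to 13512269) stood at 84.0, 81.9 and 150.2 CPM in GFPpos and at 19.7, 103 and 113 CPM in GFPneg cells. It was highest in GFPpos replicate 3 and lowest, on 6 counts, in GFPneg replicate 1, and its log2 fold change was 0.36 (SE 0.56, adjusted p = 1) with all libraries and -0.021 without GFPneg replicate 1.

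Sparc (chromosome 11, 55394500 to 55423183) encodes a protein that binds collagens outside the cell and takes part in collagen IV deposition. It stood at 880, 864 and 773 CPM in GFPpos and at 489, 1443 and 1191 CPM in GFPneg cells. The GFPpos libraries were close together, between GFPneg replicate 1 and the other GFPneg libraries (log2 -0.32, SE 0.42, edgeR adjusted p = 1). The log2 value ranged from -0.67 to -0.0028 over the 18 other settings.

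Levels of different genes were compared per kilobase of exon. In GFPneg cells the mean was 326 ± 148 CPM per kb (SD, n = 3) for Col4a1, 275 ± 131 for Sparc and 219 ± 27.0 for Col4a2, which did not differ beyond their spread. Hspg2 (103 ± 17.5 CPM per kb) and Col18a1 (101 ± 18.0) were level with each other, followed by Agrn (57.9 ± 7.76), Col4a5 (37.3 ± 17.3), Col4a6 (26.2 ± 12.4), Nid1 (11.3 ± 7.40) and Nid2 (4.41 ± 3.85). From Agrn on, the ranges of mean ± 1 SD of neighbours in this order overlapped, although Col4a5 exceeded Col4a6, Col4a6 exceeded Nid1 and Nid1 exceeded Nid2 in each GFPneg library. In GFPpos cells Sparc came first (221 ± 15.2 CPM per kb, n = 3), above Col4a1 (167.5 ± 17.4) in each library, then Col4a2 (104 ± 13.7), Col18a1 (82.4 ± 12.97) and Hspg2 (56.6 ± 9.74). Agrn (37.1 ± 10.1 CPM per kb), Col4a5 (23.0 ± 7.54), Col4a6 (20.8 ± 3.91), Nid1 (15.2 ± 5.59) and Nid2 (2.18 ± 1.09) followed in the same order as in GFPneg cells, with the ranges of mean ± 1 SD of neighbours from Hspg2 to Nid1 overlapping and Nid2 apart. Within each GFPpos library Hspg2 exceeded Agrn and Agrn exceeded Col4a5. Sparc exceeded Col4a1 per kilobase in every library except GFPneg replicate 1 (129 against 482 CPM per kb).

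The composition of the collagen IV transcripts was compared through ratios within a library, which do not depend on scaling. Counts of Col4a1 per count of Col4a2 were 1.99, 1.71 and 1.79 in GFPpos replicates 1, 2 and 3 and 2.50, 1.41 and 1.09 in GFPneg. GFPpos libraries were close to each other and GFPneg libraries spread on either side of them, with a mean log2 difference of 0.22 (exact two-sided permutation test, p = 0.6). It was 0.56 without GFPneg replicate 1 and -0.041 without GFPneg replicate 3. Per kilobase the ratio was 1.76, 1.52 and 1.59 in GFPpos and 2.22, 1.25 and 0.965 in GFPneg. Counts of Col4a5 per count of Col4a6 were 1.06, 0.954 and 0.721 in GFPpos and 1.23, 1.19 and 1.20 in GFPneg cells. Here the groups did not overlap and the GFPneg libraries, replicate 1 included, agreed closely. The mean log2 difference was -0.42, with an exact permutation p of 0.1, the smallest that 3 against 3 libraries allow (Benjamini-Hochberg adjusted over the 4 ratios, 0.4).

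Col4a5 per count of Col4a1 was 0.152, 0.161 and 0.0686 in GFPpos and 0.0337, 0.124 and 0.248 in GFPneg cells (mean log2 difference 0.23, exact permutation p = 0.8). The SD within groups, 0.69 in GFPpos and 1.46 in GFPneg on the log2 scale, exceeded that difference, which was -0.56 without GFPneg replicate 1. Nid1 per count of Nid2, with 0.5 added to each count because of the 0, was 4.72, 11.03 and 17.3 in GFPpos and 13, 3.25 and 3.08 in GFPneg cells (mean log2 difference 0.93, exact permutation p = 0.3). The GFPneg replicate 1 ratio rests on 6 and 0 counts, and without it the difference was 1.61.

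**Figure D3:**
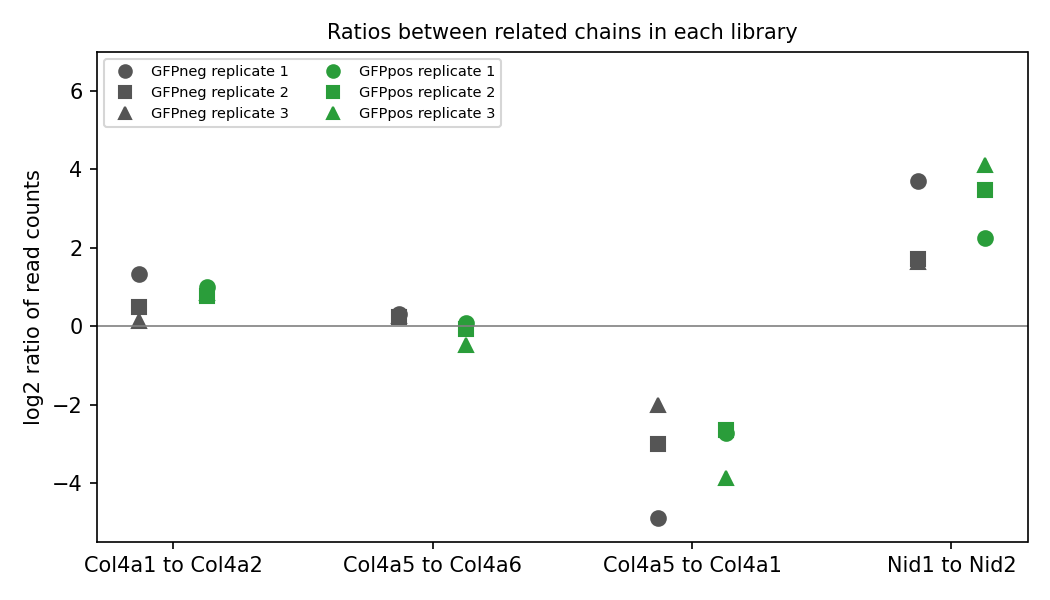
Log2 ratio of read counts between related genes in each library, grey for GFPneg and green for GFPpos, with 0.5 added to the counts of Nid1 and Nid2. The Col4a5 to Col4a6 ratio of the 3 GFPpos libraries lies below that of the 3 GFPneg libraries, and the other ratios overlap.

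Each GFPpos library shares its pool of mice with 1 GFPneg library, so ratios were also taken within pools, as log2 of CPM + 1. The median of the 10 genes was 0.30, -0.62 and -0.78 in pairs 1, 2 and 3, with 4, 10 and 8 genes lower in GFPpos cells. Over all genes tested the medians were 1.34, -0.03 and 0.05 and the shares lower 24.5%, 52.3% and 48.0%, and over the abundant genes, of which 11 had 0 counts in GFPneg replicate 1, they were 0.31, 0.02 and -0.22 and 39.8%, 47.7% and 63.0%. The median of the 10 genes therefore stood below that of the abundant genes in pairs 2 and 3 and level with it in pair 1. Nid1 and Nid2 are themselves not among the abundant genes, and their pair 1 ratios were the highest of the set. Without them the middle pair 1 ratios were those of Agrn (-0.50) and Col18a1 (0.03), both below the abundant median of 0.31. Pair 1 was split within the set. Col4a1 (-1.59), Col4a2 (-1.25), Hspg2 (-1.12) and Agrn (-0.50) were lower in GFPpos cells there, while Sparc (0.85), Col4a6 (0.79), Col4a5 (0.57), Nid1 (2.04), Nid2 (4.23) and Col18a1 (0.03) were not. The pair 1 ratios of Nid1 and Nid2 rest on 6 and 0 counts in GFPneg replicate 1, where 1 count equals 3.28 CPM. Col4a2, Hspg2 and Agrn were lower in all 3 pairs, which held for 8.07% of all genes and 16.4% of the abundant genes.

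**Figure D4:**
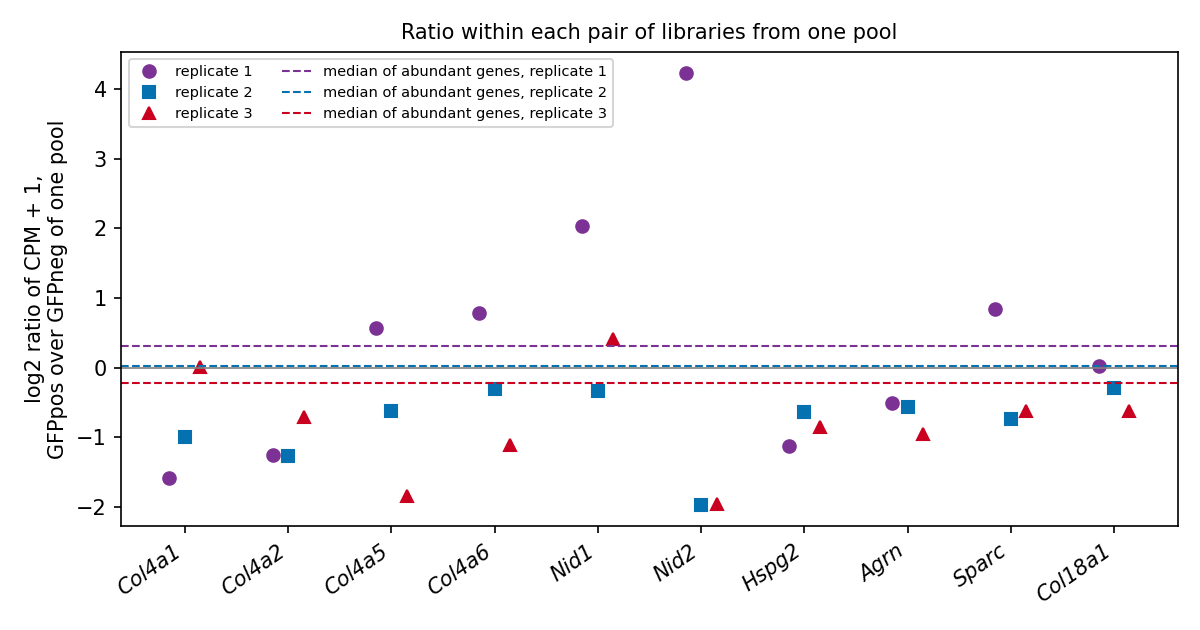
Log2 ratio of CPM + 1, GFPpos over GFPneg, within each pair of libraries from 1 pool (circle, square and triangle for replicates 1, 2 and 3), with dashed lines at the median of the genes averaging at least 100 CPM. All symbols of Col4a2, Hspg2 and Agrn lie below zero. The replicate 1 circles of Nid1 and Nid2 lie highest, at 2.04 and 4.23, on 6 and 0 counts in GFPneg replicate 1.

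As a description of likeness, log2(CPM + 1) was correlated across the 6 libraries, which share pools in pairs. Among the 45 pairs of these genes Pearson's r had a median of 0.38, and of 0.71 without GFPneg replicate 1. Col4a5 and Col4a6 varied together (r = 0.91, and 0.98 without that library), whereas r between Col4a1 and Col4a2 was 0.79 and 0.86. The genes most like Col4a1 were Bcl6, Ccdc71l, Lmo1, Dhps and Gatsl2 (r of 0.97 to 0.99 over 6 libraries). All were highest in GFPneg replicate 1, at 16.4 to 88.5 CPM, where each count is 3.28 CPM. Col4a2 ranked 512 of 9583 genes by the same measure.

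Most other basement membrane components also had negative fold changes, with no gene passing edgeR's test. Of 22 listed genes 21 were tested, 16 had negative fold changes (median log2 -0.40), and 0 were called in either direction (3 lower and 0 higher at p below 0.05 with no adjustment). DESeq2 called 0 as well, and limma-voom called 1 lower, beside 0.173% of all genes called lower. Lama3, which encodes a laminin chain of epithelia, had a log2 value of -0.94 (adjusted p = 0.938), and the further laminin chain genes Lamb1 and Lama1 had -0.85 (0.921) and -1.06 (0.991). The remaining collagen IV chain genes, Col4a3 and Col4a4, were at most 12.1 CPM in any library and at 0 in GFPneg replicate 1 and GFPpos replicate 1.

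The enzymes that build these proteins and their sugar chains had fold changes of either sign. Of 21 genes of collagen folding, secretion and crosslinking, 20 were tested, 13 were positive (median 0.22) and 0 called (1 higher and 0 lower at p below 0.05 with no adjustment). Pxdn, the peroxidase that crosslinks collagen IV, stood at 355, 482 and 257 CPM in GFPpos and at 72.1, 292 and 110 CPM in GFPneg cells (log2 1.18, SE 0.50, edgeR adjusted p = 0.843), opposite in sign to the collagen IV genes and with overlapping groups. Crtap (1.07) and P4ha2 (-1.37), which act in proline hydroxylation, and the coat protein gene Sec24d (0.62) had an adjusted p of 1. Of 20 heparan sulfate chain enzymes 19 were tested, 9 positive and 10 negative (median -0.04), and 0 called (0 higher and 1 lower with no adjustment). DESeq2 and limma-voom called 0 genes of these lists or of the matrix receptors. The sulfotransferase gene Hs6st1 had a log2 value of -1.06 (adjusted p = 0.841), the chain synthesis gene Extl3 -0.91, and the sulfatase genes Sulf1 and Sulf2 1.01 and 0.99 (adjusted p = 1 for these 3).

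Of 15 matrix receptor genes 14 were tested, 11 negative (median -0.31) and 0 called by edgeR (1 higher and 3 lower at p below 0.05 with no adjustment). Lrp4, which encodes an agrin receptor, stood at 14.95, 26.1 and 19.2 CPM in GFPpos and at 42.6, 49.3 and 126 CPM in GFPneg cells. Its groups did not overlap (log2 -1.88, SE 0.60, edgeR adjusted p = 0.640). Like Agrn it was negative, as were 11 of the 14 receptor genes tested, so the shared sign does not set the pair apart. The syndecan gene Sdc4 (-0.99, adjusted p = 0.792) and the collagen-binding integrin gene Itga2 (-1.90, 0.843) were negative and the collagen receptor gene Ddr2 positive (2.01, 0.843). The Itga2 value turned on GFPneg replicate 1, at 410 CPM against 29.8 to 48.4 CPM in the other libraries. Of 19 matrix protease and inhibitor genes 15 were tested, 7 positive and 8 negative (median -0.07), and 0 called (0 higher and 1 lower with no adjustment). DESeq2 called 0 of these and limma-voom Mmp2, lower. Mmp2, a gelatinase that cleaves collagen IV, stood at 45.2, 39.8 and 40.3 CPM in GFPpos and at 23.0, 253 and 281 CPM in GFPneg cells (log2 -2.18, SE 0.63, adjusted p = 0.493), low in GFPneg replicate 1 as in the GFPpos libraries. Plat, Timp2 and Timp4 had log2 values of 0.99, -0.60 and 2.10 (adjusted p = 1).

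Collagen IV, perlecan, nidogens and Sparc are also made by fibroblasts, endothelial cells, pericytes and Schwann cells, and the levels of their markers are given here for that reason. Of the marker lists edgeR called 0 genes, DESeq2 called Kit higher, and limma-voom called Kit and Notch3 higher and Cnn1, Myh11 and Postn lower. The summed level of 10 fibroblast markers was 458 to 672 CPM in GFPpos and 826 to 2216 CPM in GFPneg libraries, with 7 of 7 tested members negative, Lum at 0 everywhere and Dcn at 0 in GFPneg replicate 1 and GFPpos replicate 3. That of 6 Schwann cell markers was 98.6 to 143 against 164 to 889 CPM, with 3 of 4 tested negative and Sox10, S100b and Foxd3 at 0 in GFPneg replicate 1. These 2 lists were, like the basement membrane genes, lower in all GFPpos than in all GFPneg libraries. The 10 pericyte markers went the other way in sum, at 422 to 900 against 59.0 to 303 CPM (7 of 8 tested positive, 8 members at 0 in GFPneg replicate 1). Much of that sum came from Notch3 (155, 101 and 279 against 42.6, 21.7 and 61.5 CPM) and Mcam (193, 120 and 190 against 16.4, 89.2 and 86.8). Pdgfrb overlapped, at 8.70, 7.55 and 66.65 CPM in GFPpos and 0, 12.8 and 29.1 in GFPneg replicates 1, 2 and 3. The 12 endothelial markers overlapped, at 1333 to 3809 against 1019 to 2200 CPM (8 of 12 positive, 1 member, Emcn, at 0 in GFPneg replicate 1). Their highest sum, 3809 CPM, was in GFPpos replicate 3. Among GFPpos libraries, Nid1, Col4a1, Col4a2 and Hspg2 were also highest there. Col4a5, Col4a6, Agrn, Sparc and Col18a1 were instead lowest there, and Nid2 lay between the other GFPpos libraries. The 10 basal markers themselves were at 6605 to 7988 CPM in GFPpos and 8554 to 13970 CPM in GFPneg cells (9 of 10 negative, median -0.70). The part of any of these cell types in the basement membrane values was not tested.

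The 10 luminal markers summed to 643 to 946 CPM in GFPpos and 239 to 535 CPM in GFPneg libraries (8 of 10 positive, with Krt19, Elf5, Prlr, Esr1, Pgr and Foxa1 at 0 in GFPneg replicate 1). The 6 adipocyte markers summed to 42.3 to 161 CPM in GFPpos and 86.7 to 150.4 CPM in GFPneg libraries, with 5 at 0 in GFPneg replicate 1. Most of each sum came from Fabp4, at 53.5, 34.3 and 126.9 CPM in GFPpos and 88.5, 144.5 and 75.2 CPM in GFPneg replicates 1, 2 and 3. Adipoq was also at 0 in every GFPpos library, and Plin1 in GFPneg replicate 3 and GFPpos replicate 1. The 6 immune markers reached at most 9.19 CPM in any library, and 0 passed the low count filter.

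**Figure D5:**
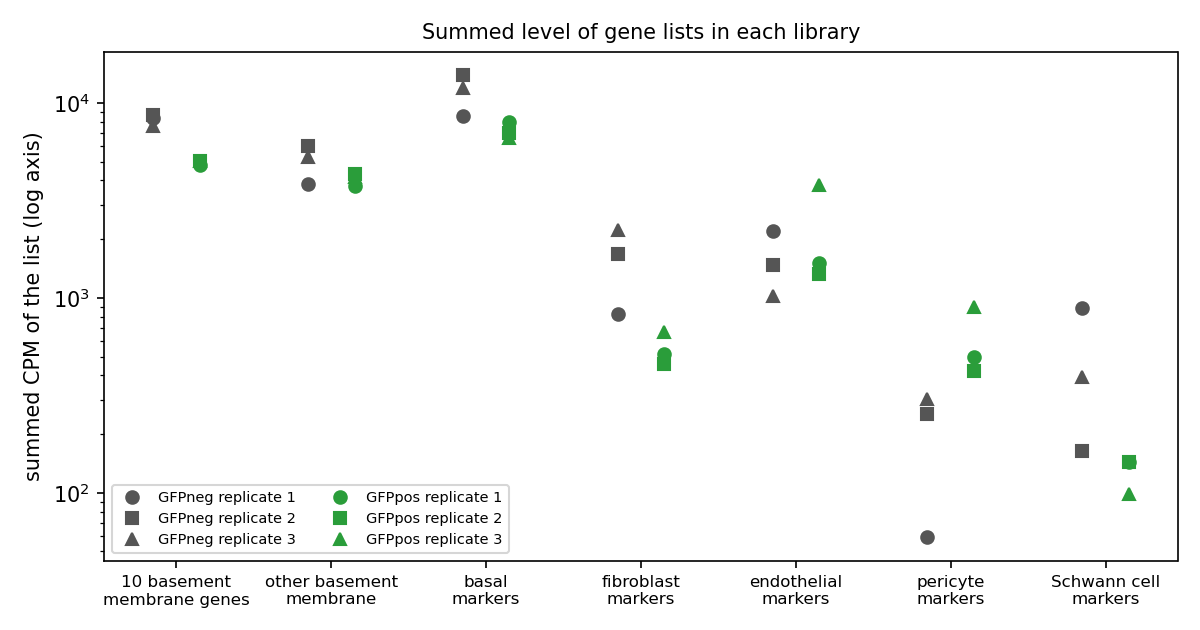
Summed CPM of each gene list per library on a log axis, grey for GFPneg and green for GFPpos, with the symbol giving the replicate. The basement membrane genes, basal, fibroblast and Schwann cell markers lie lower in all GFPpos libraries, pericyte markers lie higher, and the endothelial sum of GFPpos replicate 3 (3809 CPM) stands above the others.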

How the data were processed

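The deposited files hold raw counts for 51826 symbols and 5 summary rows per library, made by the authors with FastQC, cutadapt, TopHat2 and HTSeq on mm10 per the submitters' processing notes. No source used here states their versions, the counting mode, the strand setting or the annotation release. Without a stated strand setting, reads of overlapping genes cannot be told apart. Summary rows were left out. Reads with no feature made up 66.4% of GFPneg replicate 1 and 28.8% to 40.5% of the others. Total RNA came from pooled mice, so p-values measure the spread between libraries of different pools, sorting and library preparation included, not between single mice. The main fit did not use the pairing of the fractions by pool. Depth per library is given with the results.

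Counts were fitted with the quasi-likelihood test of edgeR 4.0.16 under R 4.3.3 (only group as a term, filterByExpr, TMM factors, 13873 genes, Benjamini-Hochberg adjustment over all of them, threshold 0.05). The SE is the unshrunk log2 fold change over the square root of F. The scripts were tested on simulated data. CPM values use effective library sizes, and per-kilobase values use merged exons of GENCODE M21. The replicate number pairs the fractions of 1 pool, as the series design states. Deviations of paired libraries from their group means correlated at -0.036, 0.12 and -0.0013. Other settings were a replicate block, DESeq2 1.42.0, limma-voom (limma 3.58.1), other scaling and filters, and leaving out libraries and pairs. Named genes were all 10 members, Notch1, the 4 genes of smallest p in each of 5 pathway lists and the 5 genes nearest to Col4a1. Col4a3, Col4a4, the single high library of Itga2, markers at 0 and markers called by other tools were pointed out after their values were seen. The same holds for the values of Mcam, Pdgfrb and Fabp4. A few named or called genes are not reported here. Members and lists were chosen with earlier results of these data known.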

Additional observations from a re-analysis of the deposited data

How the results depend on the processing

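The 10 basement membrane genes gave 0 calls in either direction in 16 of the 18 other settings. The exceptions were limma-voom and the replicate block on replicates 2 and 3 only. With limma-voom 1 was called lower (Col4a2), beside 0.173% of all genes. With the block on replicates 2 and 3 only, 2 were called lower (Col4a5 and Nid2), beside 1.41% of all genes. The replicate block on all 3 pairs left 0 called in either direction, with a median log2 fold change of -0.66, and changed no call of these genes. The median was -0.46 with library size only and -0.81 to -0.34 when single libraries or pairs were left out. The median over all genes was 0.15, and 0.31 with library size only, -0.20 with DESeq2 and 0.02 with limma-voom. All fold changes were negative in every setting for 8 of the genes. Over the leave-out fits Nid1 ranged from -0.021 (without GFPneg replicate 1) to 0.76 and Col4a6 from -0.67 to 0.085 (without both libraries of replicate 3). Each changed sign only in the fit named, and the cause was not tested.

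Over the whole table, 8 genes were called higher and 1 lower. The counts were 43 and 18 with the replicate block, 386 and 216 with the block on replicates 2 and 3 only, 51 and 104 with DESeq2, 77 and 90 with both DESeq2 and block, 54 and 24 with limma-voom, 65 and 236 with no low count filter and 5 and 1 with library size only. They ranged from 2 to 63 higher and from 1 to 68 lower over the fits without a library or a pair. The log2 differences of the chain ratios ranged over those fits from -0.041 to 0.56 for Col4a1 to Col4a2, from -0.54 to -0.26 for Col4a5 to Col4a6, from -0.74 to 1.27 for Col4a5 to Col4a1 (-0.56 without GFPneg replicate 1) and from 0.15 to 2.125 for Nid1 to Nid2. The replicate block, a sign-flip test over 3 pairs, gave them p of 0.75, 0.25, 0.75 and 0.5. The smallest p that 3 pairs allow in this test is 0.25, the value for Col4a5 to Col4a6. In GFPneg replicate 1, the 6 counts of Nid1 give a 95% Poisson interval of 7.22 to 42.8 CPM, and the 0 of Nid2 one of up to 12.1 CPM, for counting error only.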
